A study of Mus musculus with 2 samples.

Results

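The genes described here are 10 components and partners of the connective tissue matrix that are not collagens: Dcn, Lum, Bgn, Dpt, Pi16, Fbn1, Eln, Sparc, Postn and Fn1. They were chosen by symbol, and all 10 were present among the 43346 genes of the deposited tables, of which 13512 reached a mean of 1 TPM. The values come from polyadenylated RNA of adult mice aged 8 weeks, of the inbred C57BL/6J strain. The labels give 1 group, large intestine, with 2 biological replicates. Each replicate was labelled as a pool of males and females, both biosamples fall under a single donor record, and the health state was recorded as unknown. No genotype, treatment or time point separated the libraries, so the design holds no comparison between conditions. The spread given below is the SD over the 2 libraries, and a difference between them is 1 library against 1 with no replicate check and no p-value.

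The connective tissue of the gut wall is a mesh of collagen and elastic fibres laid down mainly by fibroblasts and smooth muscle cells. Small leucine-rich proteoglycans, of which Dcn encodes decorin, Bgn biglycan and Lum lumican, bind collagen and control how its fibrils assemble and how thick they grow. Elastic fibres have a core of elastin, from Eln, on a scaffold of microfibrils built from fibrillin-1, from Fbn1. Fibronectin, from Fn1, is a dimeric glycoprotein that cells pull into fibrils through integrins, and matricellular proteins such as SPARC and periostin modulate the contact between cells and matrix. Fibronectin exists as a soluble plasma form made by hepatocytes and as cellular forms made in tissues, which can include the alternative EDA and EDB exons.

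Expected counts, the authors' estimates of reads per gene, came to 50189619 in replicate 1 and 58233142 in replicate 2. Neither library was a copy of the other, since 65.4% of 17110 genes with at least 20 counts lay outside the 95% limits that counting alone would give. The labelled tissue was not borne out by its markers. The 5 colon epithelium genes checked (Car1, Aqp8, Atp12a, Scnn1b and Scnn1g) were all below 1 TPM, with sums of 0.3 and 0.32 TPM in replicates 1 and 2. The 5 genes of small intestine and Paneth cells (Lyz1, Lct, Sis, Fabp6 and Apoa4) were all well above that, but moved in opposite directions. Lct had 152 and 9.94 TPM in replicates 1 and 2, Sis 281 and 79.7 TPM and Apoa4 1094 and 91.1 TPM, whereas Lyz1 had 4597 and 6826 TPM and Fabp6 477 and 5279 TPM. The label of pooled sexes also went against the data: Xist, the RNA of the inactive X chromosome, had 0.02 TPM in replicate 1 against 20.4 TPM in replicate 2, whereas Kdm5d, Uty, Ddx3y and Eif2s3y, genes of the Y chromosome, ran from 2.39 to 8.8 TPM in replicate 1 and did not pass 0.01 TPM in replicate 2. A difference between the libraries therefore cannot be told apart from a difference of sex or of intestinal segment.

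Both libraries held all 10 genes at 1 TPM or more, the level called detected here, and their order by TPM, a level corrected for transcript length, was the same in both. Sparc led with 413 TPM in replicate 1 and 405 TPM in replicate 2 (mean 409 ± 5.90, SD, n = 2) and was rank 291 of 43346 genes by mean TPM. Dcn followed with 126 and 149.6 TPM (138 ± 16.7) and Bgn with 119.95 and 105 TPM (112 ± 10.6). Fn1 had 74.8 and 46.7 TPM (60.8 ± 19.9). The middle of the order held Dpt with 35.6 and 36.5 TPM (36.1 ± 0.60), Lum with 21.6 and 23.2 TPM (22.4 ± 1.15) and Postn with 12.01 and 10.4 TPM (11.2 ± 1.14). Eln had 9.26 and 7.51 TPM (8.38 ± 1.24), Fbn1 had 7.06 and 3.47 TPM (5.26 ± 2.54), and Pi16 was lowest with 1.22 and 1.41 TPM (1.31 ± 0.13), at rank 12916. The 2 values of each gene lay wholly above those of the next gene in this order. By mean ± SD Dcn and Bgn overlapped, as did Eln and Fbn1, but the genes of a pair were measured in the same libraries. Overlap of the SDs therefore does not show that they were level. In each library Dcn was above Bgn and Eln above Fbn1 by the deposited TPM, which depends on the transcript lengths used. The deposited bounds of Eln and Fbn1 were apart in replicate 1, 8.62 to 9.77 TPM against 6.75 to 7.30 TPM. In replicate 2 they were also apart, 7.01 to 7.92 TPM against 3.30 to 3.63 TPM. Together the 10 genes held 821 TPM (replicate 1) and 789 TPM (replicate 2), which was 0.0821% and 0.0789% of all TPM. Sparc made up 50.4% of that sum in replicate 1 and 51.4% in replicate 2, and the 4 highest genes 89.4% and 89.5%.

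**Figure D1:**
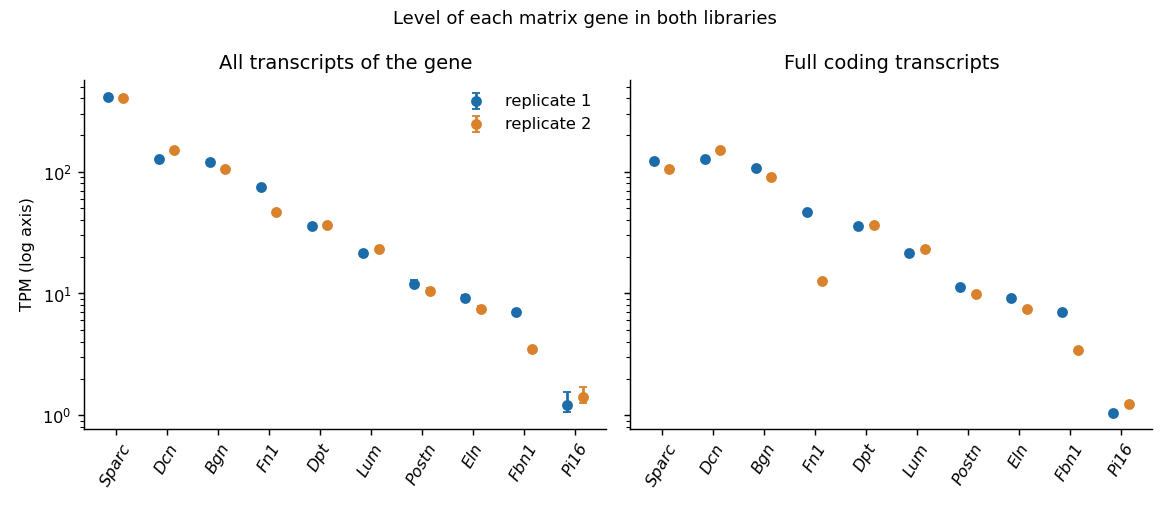
Level of each of the 10 matrix genes in TPM on a log axis, with replicate 1 to the left of replicate 2 for each gene. The left panel counts every transcript of the gene, with bars for the bounds deposited by the authors, and the right panel counts full coding transcripts only, without bars. The genes run down the same order in both libraries on the left, whereas on the right Sparc stands at 122 and 106 TPM and Fn1 at 46.4 and 12.6 TPM.

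The gene totals include fragments and unspliced models, and the order depended on them. Counting only coding transcripts annotated with a complete coding sequence, here called full coding transcripts, Sparc stood behind Dcn: Sparc had 122 TPM in replicate 1 with 106 TPM in replicate 2, and Dcn 126 and 149.6 TPM. Full coding transcripts carried 29.6% and 26.1% of the TPM of Sparc and 62.0% and 26.9% of that of Fn1. For the other 8 genes they carried at least 86.1%. On this scale the order also differed between the libraries: Fn1 stood above Dpt and Lum in replicate 1, with 46.4 TPM against 35.6 and 21.6 TPM, and below both in replicate 2, with 12.6 TPM against 36.5 and 23.2 TPM. The sum over the 10 genes became 488 TPM in replicate 1 and 441 TPM in replicate 2.

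Among the small leucine-rich proteoglycans, Dcn (ENSMUSG00000019929.11) and Lum (ENSMUSG00000036446.4) lie on the plus strand of chromosome 10 in build mm10, Dcn at chr10:97479609-97518143 and Lum at chr10:97565128-97572703, with 46984 nt between them. Dcn had 5.84 times the TPM of Lum in replicate 1 and 6.45 times in replicate 2. Bgn (ENSMUSG00000031375.13, chrX:73483602-73495933, plus strand) was close to Dcn in replicate 1, where the deposited bounds of the levels overlapped, 122 to 127 TPM for Dcn and 115 to 124 TPM for Bgn. In replicate 2 Dcn was 1.43 times Bgn and the bounds did not meet. Dcn had 2 annotated transcripts with different starts. By the authors' estimate Dcn-201 held 65.7% of its TPM in replicate 1 and 61.9% in replicate 2, and Dcn-202 the remaining 34.3% and 38.1%. They were quantified with 1886 and 1794 nt, against 1758 nt for each in GENCODE M21, and the effect on these shares was not tested. Lum had a single annotated transcript. Bgn-201, a full coding transcript, held 89.4% and 86.4% of Bgn. Bgn-208, a processed transcript of 548 nt that lies wholly inside the last part of Bgn-201, held 4.73% and 11.2%.

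Dpt encodes dermatopontin, a small protein that binds decorin and promotes collagen fibril formation. Dpt (ENSMUSG00000026574.5, chr1:164796644-164824266, plus strand) was the steadiest of the 10 after Sparc on the TPM scale and came from a single annotated transcript. Pi16 (ENSMUSG00000024011.12, chr17:29317680-29330593, plus strand) encodes peptidase inhibitor 16, a protein of the CAP family used as a marker of adventitial fibroblasts. Only 136 expected counts in replicate 1 and 205 in replicate 2 lay behind its level, against 1779 and 2494 for Lum, so its deposited bounds were wide, 1.07 to 1.54 TPM in replicate 1 and 1.27 to 1.69 TPM in replicate 2. Pi16-202 held 82.2% of its TPM in both libraries, and the retained-intron transcript Pi16-203 held 13.7% and 12.7%. Pi16-202 was quantified with 2756 nt, against 3994 nt in GENCODE M21, and the effect on its counts and TPM was not tested.

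Both elastic fibre genes were low. Eln (ENSMUSG00000029675.9, chr5:134702593-134747323, minus strand) had 971 expected counts in replicate 1 and 1027 in replicate 2, all on its single transcript in these tables. That transcript was quantified with 2583 nt, against 3853 nt in GENCODE M21. The effect on its counts, on its TPM and on its order beside Fbn1 was not tested. Fbn1 (ENSMUSG00000027204.9, chr2:125300594-125507993, minus strand) had 2993 expected counts in replicate 1 and 1926 in replicate 2. Its level was 2.03 times as high in replicate 1 as in replicate 2, and the deposited bounds did not overlap, 6.75 to 7.30 TPM against 3.30 to 3.63 TPM. The ratio of Eln to Fbn1 was 1.31 in replicate 1 and 2.16 in replicate 2. Fbn1-201, a full coding transcript of 9847 nt, held 97.3% and 98.2% of Fbn1, and Fbn1-202, also full coding, 1.53% and 1.16%.

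Of the matricellular pair, Sparc (ENSMUSG00000018593.8, chr11:55394500-55423183, minus strand), which encodes the collagen-binding protein osteonectin, owed most of its TPM to short models. Sparc-205, annotated as a retained intron and 741 nt long, held 37.5% of Sparc TPM in replicate 1 and 45.4% in replicate 2. Sparc-206, a coding fragment of 640 nt without a complete coding sequence, held 32.9% and 28.4%. The leading full coding form, Sparc-202 with 2115 nt, held 25% and 23.6%. By expected counts, which are not corrected for length, the full coding transcripts held more than the short ones, 62.7% of the counts of Sparc in replicate 1 and 58.1% in replicate 2. Of the 741 nt of Sparc-205, 647 lie inside Sparc-202, at bases 449 to 1095, and the other bases are intron. Those 94 intron bases, at chr11:55402072-55402165 (minus strand, mm10), are the sequence that sets Sparc-205 apart, and they are printed in capitals with the first exon bases after them in lower case, from the GENCODE M21 transcript.
Sparc intron bases in Sparc-205: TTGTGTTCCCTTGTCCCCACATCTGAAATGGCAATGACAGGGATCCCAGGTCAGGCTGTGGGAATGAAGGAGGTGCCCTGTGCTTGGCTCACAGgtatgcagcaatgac
All 640 nt of Sparc-206 also lie within Sparc-202. How reads in shared exons were divided among these models was the authors' estimate, and the tables give no reads over the intron bases alone.

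Postn (ENSMUSG00000027750.12, chr3:54361109-54391037, plus strand) encodes periostin, which binds collagen and fibronectin and whose mRNA is spliced in the region of its C terminus. Postn-204 held 88.4% of Postn TPM in replicate 1 and 94.0% in replicate 2. It lacks both cassette exons that set the annotated full coding forms apart, exon 17 of 81 nt at chr3:54380412-54380492 and exon 21 of 84 nt at chr3:54385671-54385754, numbered along the 23 exons of Postn-202. The exons are printed in capitals, with 15 flanking bases of the spliced Postn-202 on each side in lower case (plus strand, mm10, GENCODE M21).
Postn first cassette exon: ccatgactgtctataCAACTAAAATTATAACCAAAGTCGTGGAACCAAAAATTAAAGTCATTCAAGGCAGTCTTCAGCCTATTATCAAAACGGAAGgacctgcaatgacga
Postn second cassette exon: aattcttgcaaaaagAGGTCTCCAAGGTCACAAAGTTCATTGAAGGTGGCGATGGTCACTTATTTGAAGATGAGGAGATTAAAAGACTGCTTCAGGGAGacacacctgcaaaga
Postn-208, a retained-intron transcript of 624 nt, held 2.74% and 2.83% of Postn TPM. Forms with neither exon made up 93.7% of the full coding TPM of Postn in replicate 1 and 98.4% in replicate 2. Exon 17 was in 3.71% and 1.61%, and exon 21 in 3.97% and 1.61%. With 1527 and 1711 expected counts over the whole gene, few reads lay behind the forms that carry these exons.

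Fn1 (ENSMUSG00000026193.11, chr1:71585520-71653200, minus strand) had the most varied transcripts of the 10 genes, 17 of the 52 listed. Its 7 full-length coding forms differ by the EDB exon, by the EDA exon and by the variable (V) region. EDB is exon 25 of the 46 exons of Fn1-201, 273 nt at chr1:71613763-71614035, and EDA is exon 33, 270 nt at chr1:71603660-71603929. Both are printed 5′ to 3′ on the transcribed strand, in capitals between 12 spliced flanking bases on each side (mm10, GENCODE M21), because the share of messages that hold them distinguishes cellular from plasma fibronectin.
Fn1 EDB exon: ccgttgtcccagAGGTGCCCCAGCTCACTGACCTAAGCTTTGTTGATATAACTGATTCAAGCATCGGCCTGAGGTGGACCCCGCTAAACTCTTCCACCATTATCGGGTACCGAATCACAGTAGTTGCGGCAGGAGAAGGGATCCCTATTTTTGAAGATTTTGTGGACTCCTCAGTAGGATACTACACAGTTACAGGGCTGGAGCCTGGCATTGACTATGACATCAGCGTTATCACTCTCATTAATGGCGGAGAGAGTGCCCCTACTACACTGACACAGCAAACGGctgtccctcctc
Fn1 EDA exon: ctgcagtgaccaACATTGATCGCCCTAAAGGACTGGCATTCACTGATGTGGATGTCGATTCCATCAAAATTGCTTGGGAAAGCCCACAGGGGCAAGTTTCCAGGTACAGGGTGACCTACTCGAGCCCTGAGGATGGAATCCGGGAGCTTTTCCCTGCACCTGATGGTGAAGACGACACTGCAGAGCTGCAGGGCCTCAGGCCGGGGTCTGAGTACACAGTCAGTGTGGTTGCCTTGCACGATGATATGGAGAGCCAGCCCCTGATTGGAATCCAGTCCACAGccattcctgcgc
The full-length coding forms had 46.4 TPM in replicate 1 and 12.6 TPM in replicate 2, which was 3.69 times as much in replicate 1. EDB was present in Fn1-201 alone, which had 5.05 TPM in replicate 1 and 1.52 TPM in replicate 2, or 10.9% and 12.1% of the full-length total. Forms with EDA had 22.3 and 9.22 TPM, and forms without it 24.1 and 3.34 TPM, so that EDA was in 48.1% of the full-length total in replicate 1 and in 73.4% in replicate 2. The form that set the libraries furthest apart was Fn1-203, without EDB or EDA, with 20.4 TPM in replicate 1 and 2.08 TPM in replicate 2. Its deposited bounds did not overlap, 18.1 to 22.2 TPM against 0.979 to 3.57 TPM. Fn1-214, with EDA only, had 17.2 and 7.7 TPM. The V region was complete in 92.1% and 90.0% of the full-length total.

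By TPM, the leading Fn1 transcript in both libraries was none of these. Fn1-202, annotated as a retained intron, had 22.7 TPM in replicate 1 and 27.4 TPM in replicate 2. It had 3827 and 6022 expected counts, 19.2% and 50.1% of the counts of Fn1. In replicate 1 its deposited bounds, 21.4 to 23.7 TPM, overlapped those of Fn1-203. By expected counts Fn1-203, with 34.3%, and Fn1-214, with 29.9%, were ahead of Fn1-202 in replicate 1. The full-length coding forms together held 79.4% of the counts in replicate 1 and 46.9% in replicate 2. Fn1-202 is 4022 nt long with 17 exons and shares 3396 nt with Fn1-201, between bases 4648 and 8313, without EDA. It also keeps 626 nt of intron at chr1:71597748-71598373. The first 60 bases of that intron (chr1:71598314-71598373, minus strand, mm10, GENCODE M21) are shown in capitals after the last 30 exon bases before it, since they mark the point where Fn1-202 departs from the coding forms.
Fn1 retained intron start: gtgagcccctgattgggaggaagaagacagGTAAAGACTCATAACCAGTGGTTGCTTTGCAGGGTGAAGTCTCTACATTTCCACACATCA
The authors' estimate of the mean Fn1 transcript length was accordingly 6233 nt in replicate 1 and 4671 nt in replicate 2. Fn1-210, a transcript of 1190 nt annotated for nonsense-mediated decay, had 0.4 TPM in replicate 1 and 5.48 TPM in replicate 2. Retained-intron transcripts together held 37.5% of Fn1 TPM in replicate 1 and 61.2% in replicate 2, a difference of -23.7 percentage points. Over 3865 genes with such transcripts and a mean of 5 TPM, the median share was 7.85% in replicate 1 and 5.17% in replicate 2, and 2634 genes had the higher share in replicate 1. In 17 genes (0.44%), Fn1 included, the share was lower in replicate 1 by as much as in Fn1 or more. Fn1-202 lacks EDA, but over most of its length it overlaps forms with EDA, such as Fn1-201, as well as forms without it. The EDA share therefore rested on how reads were divided among all of them. Counting Fn1-202 as a form without EDA, a choice made after the values were seen, EDA was in 32.3% of the total in replicate 1 and 23.1% in replicate 2, the opposite order.

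**Figure D2:**
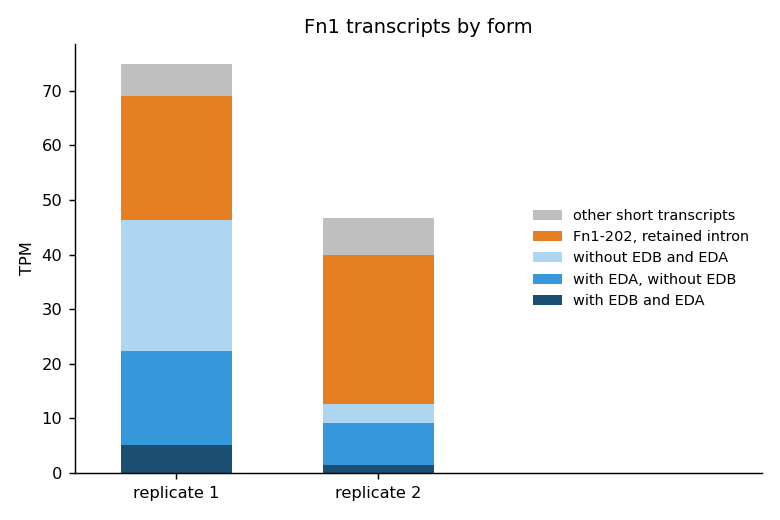
Stacked TPM of Fn1 in replicate 1 and replicate 2 by transcript form. The full-length forms at the bottom reach 46.4 TPM in replicate 1 with 12.6 TPM in replicate 2, whereas Fn1-202 above them has 22.7 and 27.4 TPM.

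The libraries were then set against each other gene by gene, as the log2 ratio of TPM + 1 in replicate 1 over replicate 2, which understates differences of low genes. None of the 10 genes was 2-fold apart, where 5.64% of the 13512 genes tested were: 603 with replicate 1 higher and 159 with replicate 2 higher. The log2 ratio was 0.85 for Fbn1 and 0.67 for Fn1. It lay between -0.25, for Dcn, and 0.27, for Eln, for the other 8 genes. The median over the 10 was 0.11, and over all genes tested it was 0.15, with 66.5% of genes higher in replicate 1. Of the 10 genes, 6 were higher in replicate 1 and 4 lower, and 5 lay above the median of all genes. With 0.1 added in place of 1, Fbn1 passed 2-fold, as did 8.4% of all genes. On full coding transcripts Fn1 passed 2-fold, with a log2 ratio of 1.81, where 4.16% of 11961 genes passed in either direction and 3.28% passed as higher in replicate 1. On that scale 78 genes (0.652%), Fn1 included, had a ratio as high as that of Fn1 or higher. That share is over genes of every transcript length, and genes as long as Fn1 were not set apart on this scale.

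Counting error was small beside the ratios of Fbn1 and Fn1. Each gene's share of the expected counts, with an exact binomial 95% interval that covers counting error only, gave a log2 ratio of 0.92 for Fn1 (0.89 to 0.96) and 0.83 for Fbn1 (0.74 to 0.91). For Dcn it was -0.44 (-0.47 to -0.40), for Lum -0.30 (-0.38 to -0.21) and for Dpt -0.23 (-0.30 to -0.15). The interval for Pi16 was the widest, -0.40 (-0.72 to -0.08). The intervals of Eln (-0.02 to 0.24) and Postn (-0.07 to 0.13) held 0. Scaled by TMM, which sets the bulk of genes level, the log2 ratio was 0.94 for Fn1, 0.83 for Fbn1 and -0.42 for Dcn, and the medians of the 10 genes and of all genes were both -0.01. The log2 ratio of Sparc depended on the scale: it was 0.03 on TPM, 0.21 on full coding transcripts, -0.07 by TMM and -0.14 on FPKM.

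**Figure D3:**
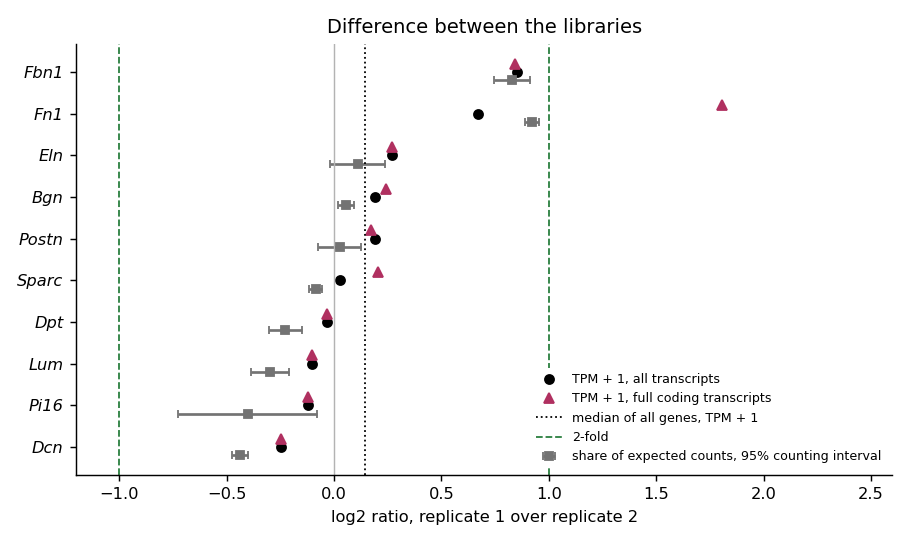
Log2 ratio of replicate 1 over replicate 2 for each gene. Circles are TPM + 1 over all transcripts, triangles TPM + 1 over full coding transcripts, and squares the share of expected counts with its 95% counting interval. The dotted line is the median of all genes at 0.15 and the dashed lines mark 2-fold, which the Fn1 triangle alone passes.

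The difference between the libraries moved with transcript length. Over all genes the median log2 ratio was -0.06 where the longest transcript had at most 1000 nt (1424 genes) and -0.01 from 1000 to 2000 nt (2670 genes). It was 0.13 from 2000 to 4000 nt (5337 genes), 0.31 from 4000 to 8000 nt (3564 genes) and 0.46 above 8000 nt (517 genes). Fbn1 and Fn1 were the 2 genes of the 10 above 8000 nt and also the 2 with the largest ratios. Of the 517 genes of that length, 60 (11.6%) had a ratio at least as high as that of Fbn1 and 123 (23.8%) at least as high as that of Fn1, these genes included. The part of length in the ratios of Fbn1 and Fn1 was not tested.

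**Figure D4:**
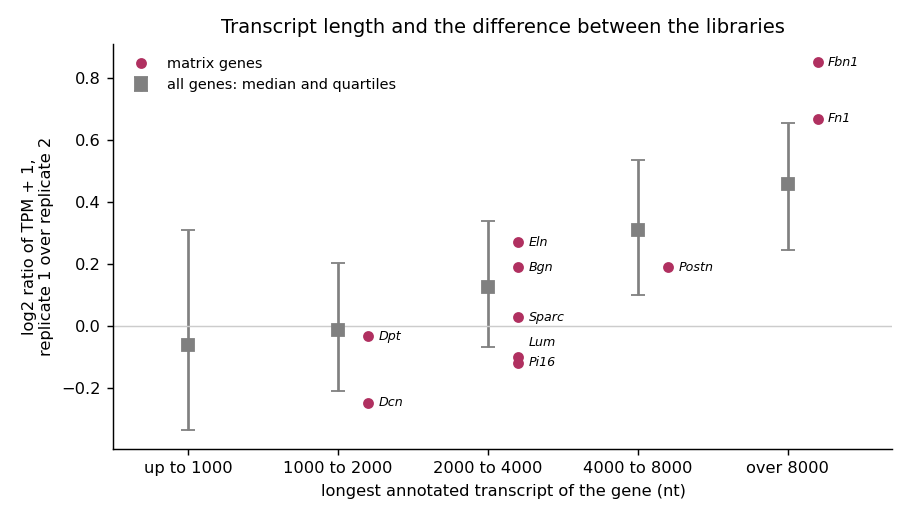
Log2 ratio of TPM + 1, replicate 1 over replicate 2, by the longest annotated transcript of a gene in nt. Grey squares and bars are the median and quartiles of all genes in a length class, from -0.06 in the shortest to 0.46 in the longest, and circles are the 10 matrix genes, with Fbn1 at 0.85 and Fn1 at 0.67 in the longest class.

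The relatives and partners of the 10 genes were read from lists of their families, with 2-fold apart taken on TPM + 1, as for the 10 genes. Over all genes tested 5.64% were 2-fold apart on that scale, so a count of 0 or 1 in a list of 10 to 20 genes is near the background. Of 17 small leucine-rich proteoglycans, 11 were detected in both libraries, and Dcn, Lum and Bgn held 70.4% of the family's summed TPM in replicate 1 and 78.1% in replicate 2. Of the 8 other members that were detected, 2 were 2-fold apart, both higher in replicate 1, as were 603 of the 762 such genes overall: Podn, which encodes podocan, with 40.2 and 15.6 TPM in replicates 1 and 2, and Tsku, which encodes tsukushi, with 17.9 and 4.24 TPM. Prelp, which encodes prolargin, had 20.4 and 22.0 TPM. Kera, for the corneal proteoglycan keratocan, had 0 counts in both libraries.

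Of 20 elastic fibre and microfibril genes, 17 were detected and none was 2-fold apart. The most abundant were Fbln1, which encodes the elastic fibre protein fibulin-1, with 124 TPM in replicate 1 and 69.8 TPM in replicate 2, Ltbp4, a microfibril protein that binds latent TGF-beta, with 56.5 and 57.1 TPM, and Mfap4, with 52.6 and 47.7 TPM. All had higher TPM than Eln and Fbn1. Of the 16 listed relatives with a mean of at least 1 TPM, 9 were higher and 7 lower in replicate 1, with a median log2 ratio of 0.05 on TPM that turned to -0.06 by TMM. Among 19 matricellular genes, 14 were detected and none was 2-fold apart. Tgfbi, a collagen-binding protein induced by TGF-beta, had 161 and 119.7 TPM, Sparcl1, the closest relative of Sparc, 59.8 and 50.01 TPM, and Smoc2, also of the SPARC family, 44.5 and 45.05 TPM. All 3 exceeded Postn, and none reached the TPM of Sparc over all its transcripts. The full coding transcripts of Sparc had 122 and 106 TPM, less than the TPM of Tgfbi over all its transcripts.

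Of 15 genes for fibronectin, its receptors and partners, 14 were detected and none was 2-fold apart. Tgm2, the transglutaminase that cross-links fibronectin, had 108 TPM in replicate 1 with 124 TPM in replicate 2. The syndecans Sdc1 and Sdc4, which bind fibronectin through heparan sulfate, had 71.0 and 68.9 TPM, and 53.4 and 63.3 TPM. For the classical receptor, integrin alpha5 beta1, Itga5 had 18.0 and 16.0 TPM and Itgb1 35.7 and 36.3 TPM, named after their values were seen. The median log2 ratio of the 13 partners measured was 0.16, beside 0.15 for all genes.

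Among 10 large proteoglycan and hyaluronan genes, 3 were detected and none was 2-fold apart on TPM + 1, although Cd44 was close to it with a log2 ratio of 0.98. These were Hspg2, for the basement membrane proteoglycan perlecan, with 17.2 TPM in replicate 1 and 16.1 TPM in replicate 2, Cd44, the hyaluronan receptor, with 20.3 and 9.78 TPM, and Cspg4 with 4.18 and 3.25 TPM. Of 12 laminin and nidogen genes, 10 were detected, and 10 of the 11 with a mean of at least 1 TPM were higher in replicate 1, with a median log2 ratio of 0.42. Of all genes 66.5% were higher in replicate 1, with a median of 0.15, and all 11 had a transcript above 4000 nt, the length classes with medians of 0.31 and 0.46. Lama3, a laminin chain of epithelial basement membrane, was 2-fold apart with 13.1 and 3.41 TPM. Lamc1 had 28.0 and 21.3 TPM, Lama5 24.5 and 24.0 TPM, and Lamb2 20.5 and 16.8 TPM. Of 13 genes of matrix turnover, 10 were detected, led by Serpinh1, the collagen chaperone, with 58.9 and 67.5 TPM, Mmp2 with 39.4 and 31.9 TPM, and Mmp14, which activates it, with 31.2 and 29.0 TPM. Mmp9, a gelatinase, was 2-fold apart with 16.4 and 5.55 TPM.

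**Figure D5:**
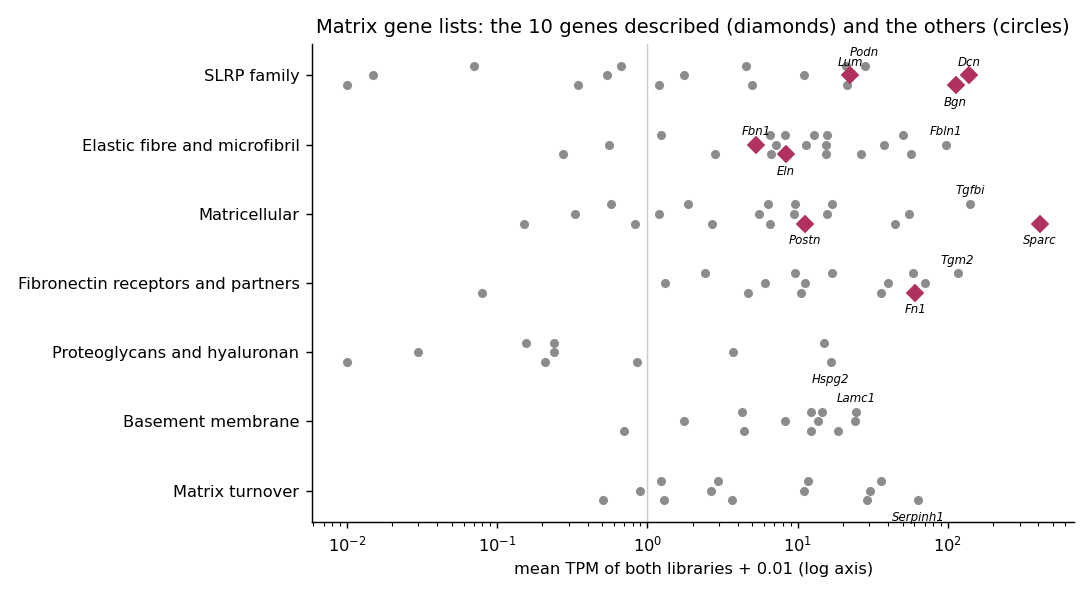
Mean TPM of both libraries + 0.01 on a log axis for each gene of 7 matrix lists, offset vertically for visibility. Diamonds are the genes described and circles the rest of each list, with the highest of the rest named and the grey line at 1 TPM. Sparc, counted over all its transcripts, is the furthest to the right, and Eln and Fbn1 lie to the left of Fbln1.

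The tissue was a mixture of cells that make these proteins, and in whole tissue fewer cells of a type and less RNA per cell cannot be told apart. All 9 fibroblast markers were detected in both libraries, and 4 were higher and 5 lower in replicate 1. Their sum was 248 TPM in replicate 1 and 327 TPM in replicate 2, a gap that came from Ly6a, 2-fold apart with 50.5 and 128 TPM. Without Ly6a, left out after its values were seen, the other 8 summed to 197 and 199.9 TPM. All 6 smooth muscle markers were detected, 5 of them lower in replicate 1, and their sum was 3098 and 3660 TPM. The 5 pericyte markers summed to 76.1 and 69.2 TPM and the 6 of blood endothelium to 67.0 and 55.3 TPM. The 6 mesothelial markers summed to 2036 and 2086 TPM, of which Krt19, which epithelium also expresses, had 2022 and 2059 TPM. Without Krt19 the sum was 14.6 and 27.4 TPM, with Upk3b 2-fold apart at 4.63 and 13.5 TPM. Upk1b was the 1 mesothelial marker higher in replicate 1, with 5.59 and 5.15 TPM. Adipocyte markers summed to 192 and 131 TPM, with Cidec 2-fold apart at 112 and 40.2 TPM. Without Cidec the other 4 summed to 79.9 and 90.4 TPM, the opposite order. That order came from Fabp4, with 45.35 and 58.7 TPM. Of the 5 adipocyte markers, 4 were higher in replicate 1 and Fabp4 was the 1 lower. Epithelial markers summed to 8080 and 6818 TPM, with Vil1 2-fold apart at 794 and 381 TPM. The 3 lymphatic endothelium markers summed to 12.01 and 8.86 TPM, the 4 of enteric glia to 5.66 and 5.95 TPM, and the 5 of macrophages to 232 and 208 TPM. No marker of these lists was at 0 in both libraries, and the part of these cell types in the ratios of the 10 genes was not tested.

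Hepatocyte markers were read beside Fn1, since hepatocytes make plasma fibronectin. Alb, for albumin, had 0.72 TPM in replicate 1 with 0.44 TPM in replicate 2, and the 4 hepatocyte markers summed to 7.22 and 5.56 TPM. Ttr, the 1 marker detected in both libraries, had 3.61 and 4.58 TPM. Apoa2 had 1.4 and 0.41 TPM and Serpina1a 1.49 and 0.13 TPM, both higher in replicate 1, like Alb. The part of hepatocytes in the level of Fn1 was not tested.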

How the data were processed

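For each library the authors deposited tables of genes and of transcripts, on build mm10 with GENCODE M4 per the accompanying notes. Reads were paired, stranded and 76 nt long, from RNA above 200 nt, per the labels. Aligner, quantification program and versions: not given in the sources used here. Deposited expected counts are estimates and need not be whole. The deposited TPM is corrected for effective length and includes spike-ins in its total. Transcript shares are the deposited percent of the gene's TPM. The deposited TPM bounds form a signal column whose interval level the headers do not state.

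Symbols, transcript types, positions and sequences came from GENCODE M21 (mm10), matched on the identifier without version. All 52 transcripts of the 10 genes matched, 43 with the same length in both releases; Dcn, Lum, Eln, Pi16 and Postn hold the others. Genes overlapping Dpt, Fbn1 or Fn1 on the opposite strand had at most 10 counts. Ratios used genes with a mean of at least 1 TPM.

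The members and gene lists were chosen with earlier results of these data known. Of each list the 3 highest relatives and any relative 2-fold apart were named, and of transcripts the 2 highest of each gene and any with at least 20%. Further transcripts, markers and integrins were named after their values were seen. The ratio step was tested on simulated data.

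Alternatives were the deposited FPKM, posterior mean TPM, TPM rescaled after dropping spike-ins and mitochondrial genes, other minimums and pseudocounts, full coding transcripts, leaving out a library, and expected counts rounded to whole numbers under TMM (edgeR 4.0.16) or DESeq2 1.42.0 size factors, run with R 4.3.3. Python 3.11.15 was used with pandas 2.3.3, numpy 2.4.6, matplotlib 3.10.9 and scipy 1.17.1. Junction and contig lists on build mm9 were not used here.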

Additional observations from a re-analysis of the deposited data

How the results depend on the processing

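The number of the 10 genes at least 2-fold apart was 0 on TPM + 1 and became 1 with a pseudocount of 0.1 (Fbn1) and 1 on full coding transcripts (Fn1). Their mean summed TPM was 805 and became 887 when TPM was rescaled without mitochondrial genes and spike-ins, and 464 on full coding transcripts. From replicate 1 alone it was 821, and from replicate 2 alone 789. The median log2 ratio of the 10 genes was 0.11 and became -0.058 on FPKM, -0.012 with TMM and -0.016 with DESeq2 size factors. Of 70 alternative ratios of single genes, 3 changed sign, all of Sparc. All 10 genes were detected under each alternative except a minimum of 5 TPM, which left 8. By share of TPM, both libraries had the same leading transcript in all 10 genes, also by posterior means. The EDA share of full-length Fn1 differed by -25.3 percentage points, replicate 1 minus replicate 2, and by 9.18 with Fn1-202 counted as lacking EDA. The adipocyte marker sum differed by 61.0 TPM, replicate 1 minus replicate 2, and by -10.5 without Cidec, and the fibroblast marker sum by -79.5 and by -2.45 without Ly6a. These 3 alternatives were added after the data were seen.

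No paired analysis was possible because the labels give 1 group and no contrast. With 2 libraries neither the SD nor the ratios have a further check. Depth limits Pi16 most, and shares of transcripts with common exons depend on an estimate that the tables do not allow to be repeated.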

Other observations

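Optc, which encodes opticin, a small leucine-rich proteoglycan best known from the vitreous body of the eye, had 19.8 TPM in replicate 1 and 22.0 TPM in replicate 2, from 1228 and 1780 expected counts. Prelp, the neighbouring gene on the same strand of chromosome 1, had 20.4 and 22.0 TPM, and the annotated exons of the genes share 0 bases. Lox, the founding lysyl oxidase that cross-links elastin and collagen, had 1.64 and 0.79 TPM, whereas its relatives Loxl1 and Loxl2 had 12.5 and 13.1 TPM, and 17.8 and 13.0 TPM. Of the hyaluronan synthases, Has1, Has2 and Has3 were all below 1 TPM, with at most 0.26 TPM, while the receptor Cd44 had 20.3 TPM in replicate 1 and 9.78 TPM in replicate 2. Myh11, a smooth muscle myosin, was the 1 smooth muscle marker of 6 higher in replicate 1, with 89.6 and 46.3 TPM, a log2 ratio of 0.94. The part of transcript length in that ratio was not tested.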
